A study of Homo sapiens with 6 samples.

Results

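Kinesins are motor proteins that turn ATP hydrolysis into movement along microtubules or into their disassembly. Mitotic kinesins build the spindle, move chromosomes and complete cytokinesis, and their genes are expressed mainly in dividing cells. Transport kinesins carry vesicles, organelles and ciliary components through the cytoplasm at all stages of the cell cycle. The kinesin genes examined here were the single-name rows of the deposited expression table whose gene name begins with KIF and continues with a digit or a C. The rule took 39 of 18268 rows: 13 mitotic kinesins, 14 transport kinesins, 11 others and KIF1BP, which encodes a kinesin-binding protein and no motor. The classes were assigned from the known main role of each protein. Another 4 rows join a kinesin name (KIF2A, KIF17, KIF27 or KIFC1) to neighbouring genes and were left out by the rule, because their values cannot be assigned to a single gene.

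RNA was sequenced from MIA PaCa-2 cells, an established human pancreatic carcinoma line, with LINC00901 overexpression (3 libraries) or with the empty pCDH vector (3 libraries). LINC00901 is a long noncoding RNA. All cells were grown in DMEM with 10% fetal bovine serum and 2.5% horse serum. The labels do not say whether the replicates were separate cultures or whether the cells are clonal, and the p-values cover just the variation among these 6 libraries, which may be technical.

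Values are FPKM, fragments scaled to gene length and to the size of the library, so levels of different genes can be compared. FPKM values summed to between 127768 and 128538 in the overexpression libraries and to between 87162 and 88738 in the vector libraries, and the depth behind them is unknown. Overexpression was not checked, since 0 rows name LINC00901. Of 6 epithelial markers, 5 had a row of their own, and their summed level was 85.5 to 112.38 FPKM in overexpression libraries and 94.38 to 110.22 FPKM in vector libraries. KRT18 stood at 62.48 to 86.92 FPKM in overexpression libraries and 90.93 to 105.38 FPKM in vector libraries, and KRT19 at 22.89 to 25.02 FPKM and 2.22 to 5.92 FPKM in these groups, while EPCAM and CDH1, which define epithelial cells, stayed at or below 0.14 FPKM in all 6 libraries. Of the 6 fibroblast markers, whose sums were 174.01 to 198.56 FPKM and 189.13 to 204.54 FPKM, COL3A1 held most, and DCN and PDGFRB did not exceed 0.14 FPKM. The 4 immune marker rows summed to at most 1.52 FPKM and the 3 endothelial ones to at most 0.64 FPKM in any library. The part of these differences in the kinesin results was not tested. CDKN2A, whose locus is known to be deleted in this line, did not exceed 0.14 FPKM.

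Most promoters of the mitotic kinesins held sequence elements known from cell cycle genes. The rule that took the genes did not use these elements. They were searched for because of that known link, so their presence describes the class and gives it no independent support. The cell cycle genes homology region (CHR) is bound by the MuvB complex, which represses such genes in resting cells and activates them before mitosis, and it usually lies just downstream of CCAAT boxes, bound by NF-Y. RefSeq windows from 250 bases before to 50 bases after the gene start were given for 32 of the 39 rows. They were searched on both strands for CHR letters, which are TTTGAA or, in a less frequent form that reads the same on both strands, TTCGAA. The other searches were for CCAAT as bound by NF-Y and for the E2F-type letters TTTCGCGC and also TTTGGCGC. In these windows 0 matches overlapped a match of another element. CHR and CCAAT letters stood together in 9 of 13 mitotic kinesins (69.2%), in 1 of 10 transport kinesins (10.0%) and in 1 of 8 others (12.5%). Among all 27305 promoter windows 6.58% held both, and among the 7388 windows of rows tested below 4.87% did. CHR letters, with or without CCAAT, were found in 76.9% of mitotic kinesins and 16.6% of all windows, and CCAAT in 76.9% and 35.7%. A match describes letters in a window and is no proof of a bound site. E2F-type letters occurred in 1 of the 13 mitotic kinesins, KIF15, and in 1.18% of all windows.

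The 6 windows below hold both elements, with the matches in capitals, read as their reverse complement (such as ATTGG) where the match is on the other strand. On the unscaled values KIF14 and KIF18A were lower in overexpression libraries, KIF22 was higher and KIF4A did not pass the test. These windows were picked by gene name, so the mix of changes among them follows from the pick. The other mitotic kinesins with both elements, KIF23, KIF20B, KIF11, KIF18B and KIF4B, did not pass on the unscaled values. The CHR letters of KIF22 and KIF24 are the less frequent form. KIF24 is the only window of the other kinesins, and KIF5B the only one of the transport kinesins, in which both were found. In KIF5B the CHR letters lie upstream of the CCAAT letters, and in the other 5 they lie downstream.
KIF14 (GRCh38.p14 chr1:200620702-200621001, minus strand): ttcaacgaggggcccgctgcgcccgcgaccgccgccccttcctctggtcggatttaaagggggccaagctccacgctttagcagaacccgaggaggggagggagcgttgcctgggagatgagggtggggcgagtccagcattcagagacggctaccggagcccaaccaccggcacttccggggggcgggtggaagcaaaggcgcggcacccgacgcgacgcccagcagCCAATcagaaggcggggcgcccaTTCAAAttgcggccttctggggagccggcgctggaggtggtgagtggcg
KIF18A (GRCh38.p14 chr11:28108107-28108406, minus strand): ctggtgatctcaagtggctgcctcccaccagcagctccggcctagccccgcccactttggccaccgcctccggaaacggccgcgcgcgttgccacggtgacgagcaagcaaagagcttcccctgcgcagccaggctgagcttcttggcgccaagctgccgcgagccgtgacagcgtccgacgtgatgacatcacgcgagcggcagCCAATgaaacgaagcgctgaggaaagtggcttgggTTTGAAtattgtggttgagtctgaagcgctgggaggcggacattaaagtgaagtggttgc
KIF22 (GRCh38.p14 chr16:29790501-29790800, plus strand): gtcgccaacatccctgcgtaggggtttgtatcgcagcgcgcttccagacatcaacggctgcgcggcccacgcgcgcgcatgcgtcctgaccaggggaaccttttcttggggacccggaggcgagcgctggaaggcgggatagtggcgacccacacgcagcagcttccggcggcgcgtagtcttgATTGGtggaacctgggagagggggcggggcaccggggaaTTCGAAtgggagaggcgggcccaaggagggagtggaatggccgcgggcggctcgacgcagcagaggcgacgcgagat
KIF4A (GRCh38.p14 chrX:70289854-70290153, plus strand): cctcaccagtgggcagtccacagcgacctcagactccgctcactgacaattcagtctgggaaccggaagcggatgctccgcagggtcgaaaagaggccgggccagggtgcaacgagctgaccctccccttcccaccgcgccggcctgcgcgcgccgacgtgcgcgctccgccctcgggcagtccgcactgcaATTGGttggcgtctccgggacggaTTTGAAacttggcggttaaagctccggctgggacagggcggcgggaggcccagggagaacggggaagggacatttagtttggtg
KIF24 (GRCh38.p14 chr9:34329219-34329518, minus strand): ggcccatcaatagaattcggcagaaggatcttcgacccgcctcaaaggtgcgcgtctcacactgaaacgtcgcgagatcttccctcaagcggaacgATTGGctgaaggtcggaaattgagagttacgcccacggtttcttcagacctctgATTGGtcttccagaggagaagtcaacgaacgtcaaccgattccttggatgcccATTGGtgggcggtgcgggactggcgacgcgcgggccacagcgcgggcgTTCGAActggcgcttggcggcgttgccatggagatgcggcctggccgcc
KIF5B (GRCh38.p14 chr10:32056376-32056675, minus strand): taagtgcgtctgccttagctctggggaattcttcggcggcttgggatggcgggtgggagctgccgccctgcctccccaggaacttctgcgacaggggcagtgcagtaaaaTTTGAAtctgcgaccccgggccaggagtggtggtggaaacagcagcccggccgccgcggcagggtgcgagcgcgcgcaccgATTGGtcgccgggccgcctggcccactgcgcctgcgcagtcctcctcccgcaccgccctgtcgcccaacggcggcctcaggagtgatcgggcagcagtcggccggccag

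**Figure D1:**
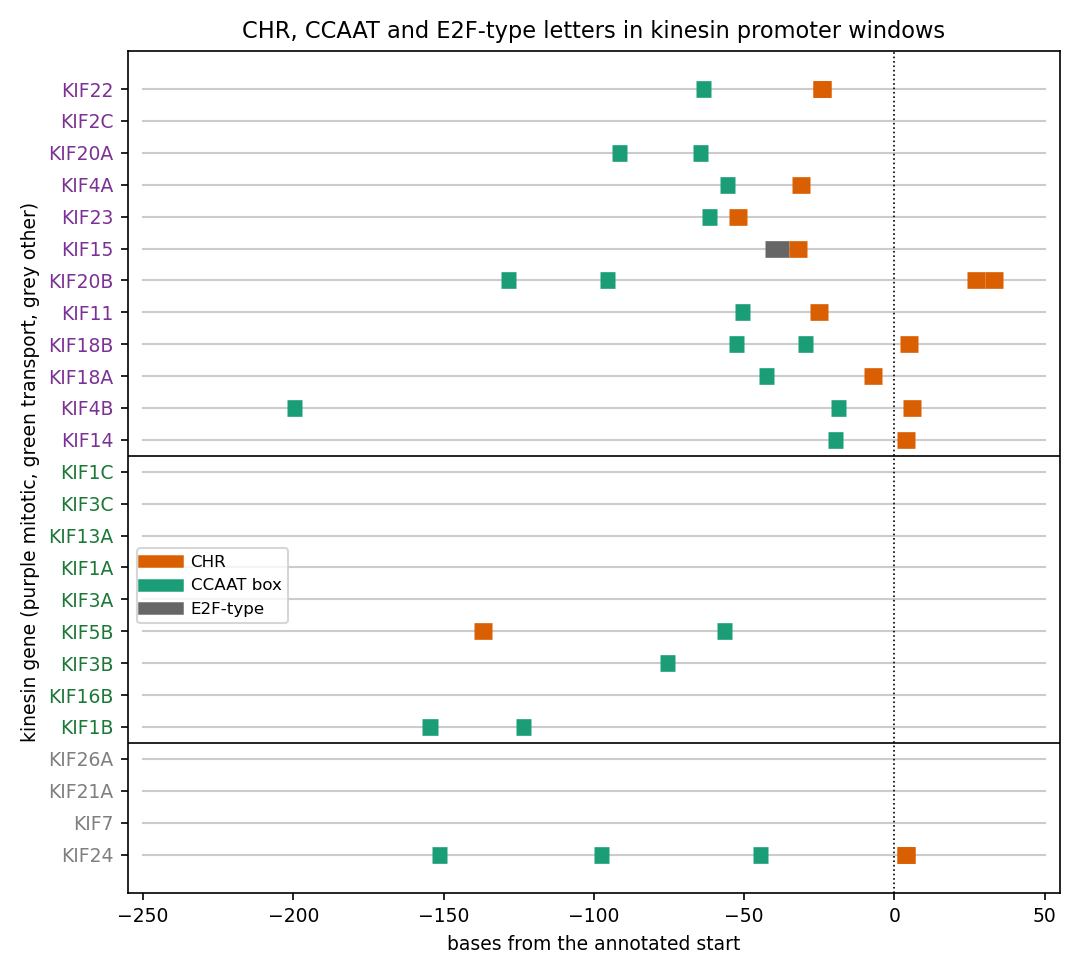
Positions of CHR letters (orange), CCAAT letters (green) and E2F-type letters (grey) in the promoter windows of tested kinesins, in bases from the annotated start, with each row a gene. In mitotic kinesins the CHR letters lie between 55 bases before and 35 bases after the start, and most transport kinesins hold none of these letters.

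Mitotic kinesins dominated the kinesin transcripts of these cells. Their 13 rows summed to 199.0 ± 6.21 FPKM in overexpression libraries and 177.0 ± 6.29 FPKM in vector libraries (SD, n = 3 each). The 14 transport kinesins summed to 76.8 ± 7.47 FPKM in overexpression libraries and 70.1 ± 3.16 FPKM in vector libraries. As a share of all FPKM in a library, mitotic kinesins took 0.155% ± 0.00513 in overexpression libraries and 0.201% ± 0.00569 in vector libraries, and transport kinesins took 0.0599% ± 0.00569 in overexpression libraries and 0.0800% ± 0.00384 in vector libraries. The summed mitotic level was higher in each overexpression library than in each vector library. The transport sums overlapped, at 81.96, 80.30 and 68.27 FPKM in overexpression libraries and 67.37, 73.58 and 69.50 FPKM in vector libraries. As shares of the library, both classes were lower in each overexpression library, and these sums were not tested. The sum of all FPKM was itself higher in those libraries.

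**Figure D2:**
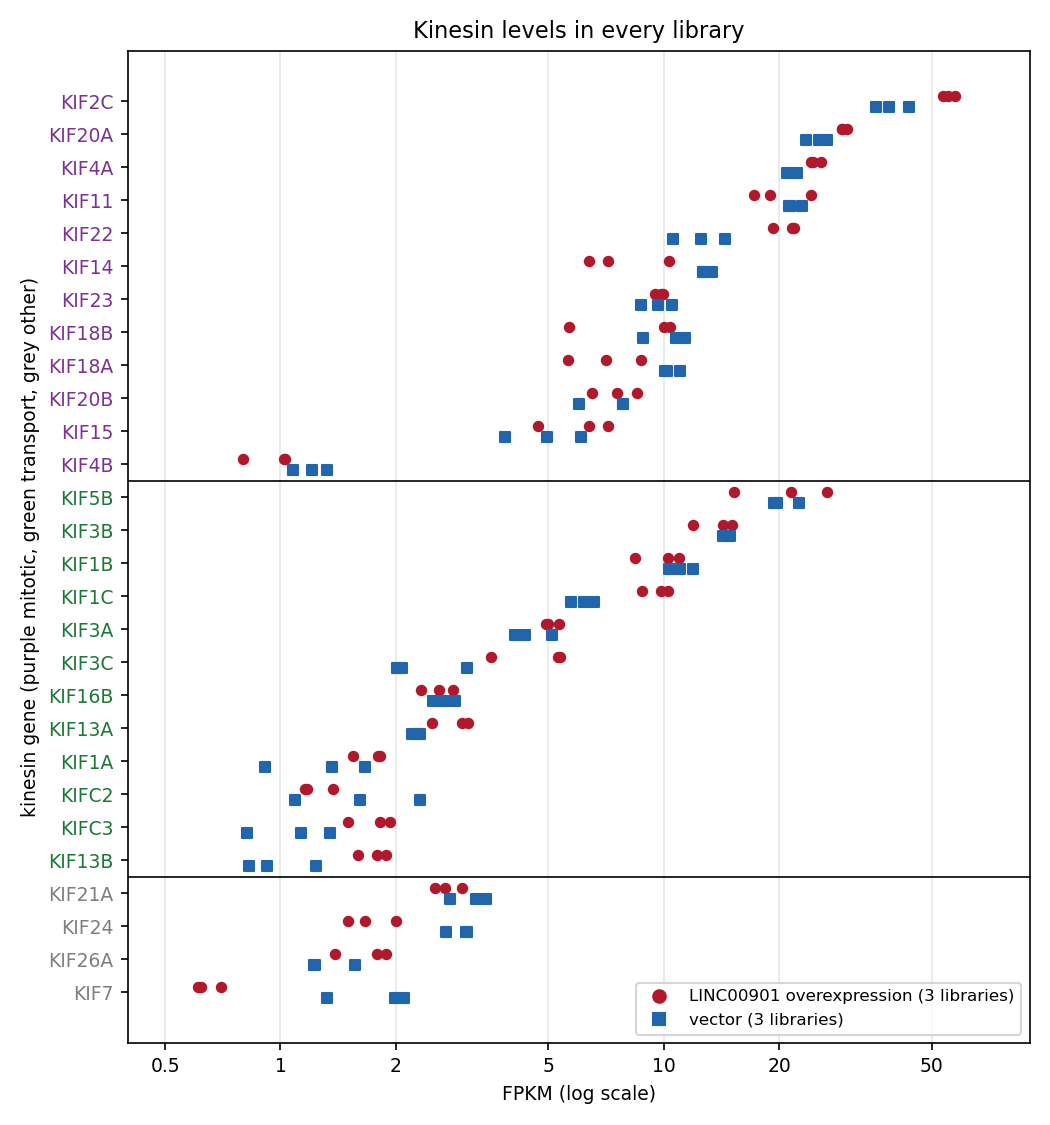
FPKM of each tested kinesin motor in every library, on a log scale, for LINC00901 overexpression (red circles) and vector (blue squares), in order of mean level within each class. KIF2C, KIF22, KIF1C and KIF3C lie higher in all overexpression libraries, and KIF14, KIF18A, KIF24 and KIF7 lower, while KIF5B and KIF11 overlap.

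Of the 39 rows, 29 had a mean of at least 1 FPKM and were tested, 28 of them motors. In limma with Benjamini-Hochberg adjustment over all 9694 tested rows, 11 of 28 motors passed an adjusted p of 0.05, 7 higher and 4 lower in overexpression libraries. Over all tested rows 49.2% passed, 37.4% higher and 11.9% lower, so the share of kinesins called was not above the background. The groups did not overlap for 14 of 28 motors and for 60.6% of all tested rows. The median log2 change was 0.04 for the 12 mitotic kinesins, 0.22 for the 12 transport kinesins, -0.40 for the 4 others and 0.27 for all tested rows. A gene with a log2 change below 0.27 therefore lay below the median gene of the table. That was the case for 9 of 12 mitotic, 6 of 12 transport and 4 of 4 other kinesins. The difference between the classes was not tested, because genes of a class are not replicates.

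Mitotic kinesins were called in both directions. Of the mitotic kinesins 3 were higher and 2 lower, of the transport kinesins 4 were higher and 0 lower, and of the others 0 were higher and 2 lower. With each library centred on its median gene these counts were 2 and 3, 2 and 1, and 0 and 3. With quantile normalization they were 0 and 6, 3 and 2, and 0 and 2. With a correction for transcript length and GC content they were 0 and 3, 1 and 1, and 0 and 2. Of all rows, 43.3% were called with median centring (24.0% higher, 19.2% lower), 40.1% with quantile normalization (19.2% higher, 20.9% lower) and 38.6% once length and GC were corrected for (19.3% higher, 19.3% lower). The 2 lower mitotic calls became 1 without overexpression replicate 2 or without any 1 of the vector replicates, and 0 without overexpression replicate 3. The 4 higher transport calls became 2 without overexpression replicate 1 or 2. Calls over all tested rows also fell. Lower calls went from 1152 to 812 without overexpression replicate 3, 888 without overexpression replicate 2 and 972 to 1004 without a vector replicate. Higher calls went from 3621 to 3017 without overexpression replicate 1 and 2988 without overexpression replicate 2. In the 4 scalings 5 motors were called in the same direction each time: KIF1C higher, and KIF14, KIF18A, KIF24 and KIF7 lower. KIF7 reached the filter of 1 FPKM only through its vector libraries. Of 8830 rows tested in all 4, 24.7% were called alike each time, 13.7% higher and 11.0% lower.

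**Figure D3:**
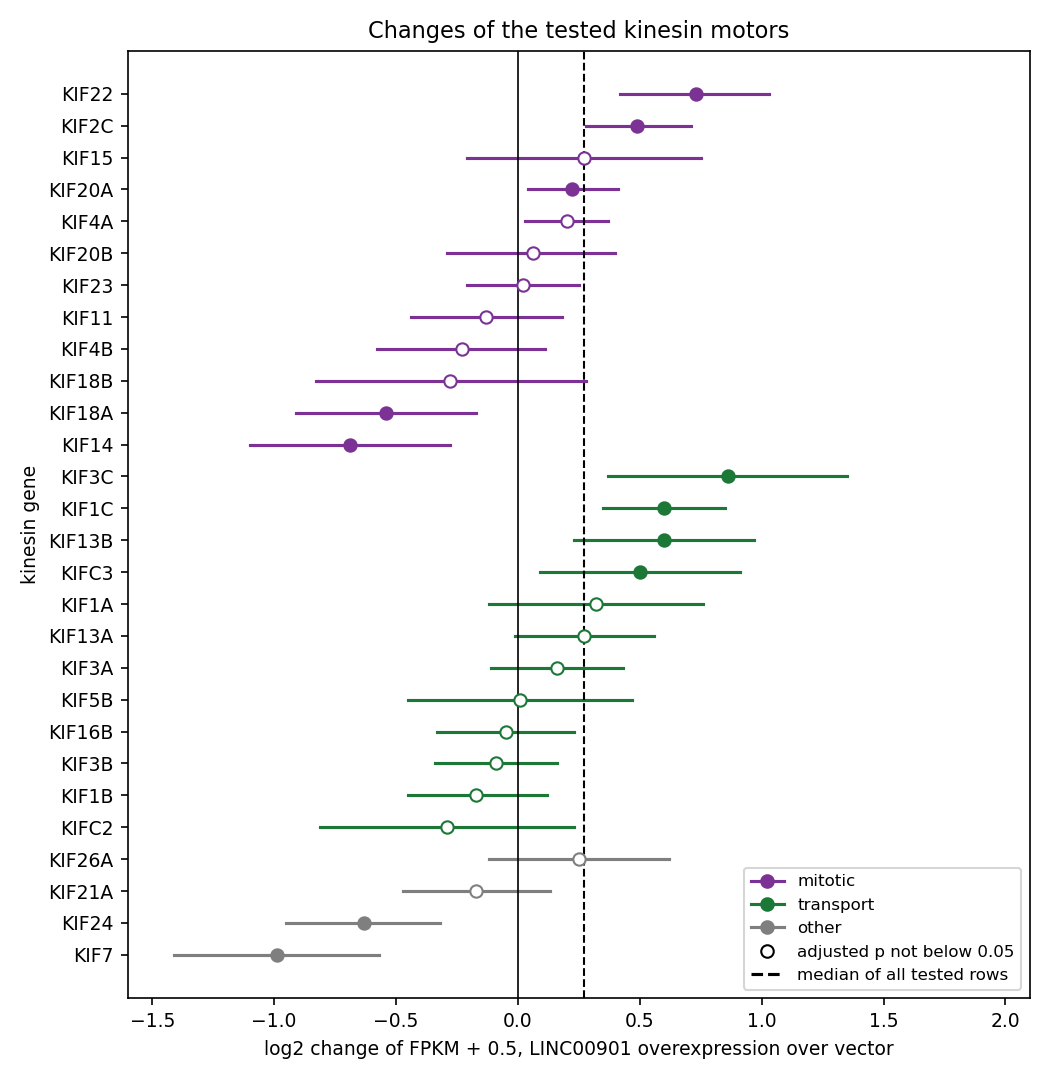
Log2 change of FPKM + 0.5, LINC00901 overexpression over vector, for the 28 tested kinesin motors, with 95% confidence intervals from limma. Filled points passed an adjusted p of 0.05. The dashed line marks the median of all tested rows at 0.27, and most mitotic kinesins lie to its left.

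Among the mitotic kinesins, those that act on chromosomes and kinetochores gave calls in both directions. KIF2C, a depolymerase that corrects faulty kinetochore attachments, was the most abundant kinesin. It stood at 53.55, 55.24 and 57.49 FPKM in overexpression libraries and at 38.58, 35.73 and 43.66 FPKM in vector libraries. Each overexpression library was above each vector library, and the log2 change was 0.49 ± 0.09 (SE, limma adjusted p = 0.00435), or 0.23 above the median gene. The KIF2C change was -0.17 with quantile normalization (adjusted p = 0.169) and 0.15 with the length and GC correction (adjusted p = 0.187), so its direction depends on the scaling. KIF2C made up 27.9% ± 1.15 of the summed mitotic kinesin FPKM in overexpression libraries and 22.2% ± 1.49 in vector libraries (SD, n = 3 each).

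KIF22, a chromokinesin that pushes chromosome arms toward the spindle equator, stood at 19.23, 21.82 and 21.64 FPKM in overexpression libraries and at 10.57, 12.53 and 14.45 FPKM in vector libraries. The groups did not overlap, and KIF22 had the largest rise among mitotic kinesins, 0.73 ± 0.13 log2 (SE, limma adjusted p = 0.00379), or 0.46 above the median gene. The change of KIF22 stayed positive in all 3 rescalings but did not pass with quantile normalization (0.30, adjusted p = 0.114) or with the length and GC correction (0.21, adjusted p = 0.177). KIF22 has the shortest transcript of the tested motors, at 2505 bases, and over all 8830 rows with a length the change had a Pearson correlation of -0.29 with log length. The part of length in the KIF22 change was not tested beyond that correction.

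KIF18A, which dampens chromosome movements at the metaphase plate, stood at 8.70, 5.61 and 7.06 FPKM in overexpression libraries and at 10.17, 10.07 and 11 FPKM in vector libraries. Each overexpression library was below each vector library. The log2 change of KIF18A was -0.54 ± 0.16 (SE, limma adjusted p = 0.0268), or -0.80 relative to the median gene. KIF18A passed in all 3 rescalings, with adjusted p between 0.00517 and 0.0127. On the unscaled values the KIF18A call was lost without overexpression replicate 2 (adjusted p = 0.0544) or 3 (0.0684) and without vector replicate 1 (0.0563), 2 (0.0551) or 3 (0.0719). Its relative KIF18B, which limits astral microtubules, did not pass (limma adjusted p = 0.355). KIF18B stood at 5.64, 9.98 and 10.37 FPKM in overexpression libraries and at 10.73, 8.82 and 11.34 FPKM in vector libraries. Replicate 1 of the overexpression libraries was the highest of its group for KIF18A and the lowest for KIF18B.

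Kinesins of the central spindle and cytokinesis gave a lower KIF14, a slightly higher KIF20A and no call for the others. KIF14, which holds the midbody together with citron kinase, stood at 10.34, 6.37 and 7.16 FPKM in overexpression libraries and at 12.65, 12.63 and 13.37 FPKM in vector libraries. All 3 overexpression libraries were below the vector libraries, replicate 1 least so. KIF14 had the largest fall among mitotic kinesins, -0.69 ± 0.17 log2 (SE, limma adjusted p = 0.0151), or -0.95 relative to the median gene. It passed in all 3 rescalings, with log2 changes between -1.01 and -0.65. The KIF14 call was lost without overexpression replicate 3 (adjusted p = 0.0523).

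KIF20A, which brings the chromosomal passenger complex to the central spindle, stood at 29.14, 29.18 and 30.01 FPKM in overexpression libraries and at 26.61, 25.44 and 23.43 FPKM in vector libraries. No vector library reached the overexpression range, but the log2 change of 0.22 ± 0.08 (SE, limma adjusted p = 0.0478) was 0.04 below the median gene. It became -0.30 with quantile normalization, past the threshold in the other direction (adjusted p = 0.0260), and -0.07 with the length and GC correction. The KIF20A call held only without vector replicate 1 (adjusted p = 0.0432) among the fits that left out a library, and the others gave 0.0800 to 0.139. KIF4A, a chromokinesin that sets the length of the midzone, showed a like pattern, at 24.24, 24.42 and 25.70 FPKM in overexpression libraries and 21.34, 22.22 and 20.92 FPKM in vector libraries (0.20 log2, limma adjusted p = 0.0555). KIF4A passed as higher with no filter (adjusted p = 0.0497) and with a mean of at least 5 FPKM (adjusted p = 0.0402), which made 4 mitotic kinesins higher. Over all rows 25.7% were higher with no filter, and 2396 of 4830 rows were higher with a mean of at least 5 FPKM. The KIF4A change was near 0 with median centring (-0.01, adjusted p = 0.946) and with the length and GC correction (-0.00, adjusted p = 0.983). With quantile normalization KIF4A passed as lower (-0.29, adjusted p = 0.0209).

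KIF23, the motor subunit of centralspindlin, differed by 0.02 log2, with a 95% interval of -0.21 to 0.25 (limma adjusted p = 0.886). It stood at 9.74 ± 0.241 FPKM in overexpression libraries and 9.63 ± 0.885 FPKM in vector libraries (SD, n = 3 each). KIF20B, which acts in late cytokinesis, differed by 0.06 log2 (interval -0.29 to 0.40). The signs of both were negative with median centring and with quantile normalization, where KIF23 passed as lower (-0.30, adjusted p = 0.0474). KIF4B is an intronless copy of KIF4A, so reads of the more abundant KIF4A may have been assigned to it. It stood at 0.95 ± 0.130 FPKM in overexpression libraries and 1.20 ± 0.120 FPKM in vector libraries and did not pass (limma adjusted p = 0.220). KIF4B passed as lower with median centring (adjusted p = 0.0465) and with the length and GC correction (adjusted p = 0.0486). Its overexpression mean lay under the filter of 1 FPKM, which it passed through its vector libraries.

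The motors that separate the spindle poles did not pass. KIF11, the main pole-separating motor, stood at 24.14, 17.16 and 18.88 FPKM in overexpression libraries and at 22.87, 21.27 and 21.17 FPKM in vector libraries. Replicate 1 was above all vector libraries and replicates 2 and 3 were below them. The KIF11 log2 change was -0.13 with an interval of -0.44 to 0.18 (limma adjusted p = 0.445), and it passed as lower with quantile normalization (-0.60, adjusted p = 0.00898). KIF15, which can stand in for KIF11, differed by 0.27 log2 with an interval of -0.21 to 0.75 (limma adjusted p = 0.303). In the overexpression libraries replicate 1 was the highest for 6 of the 12 tested mitotic kinesins and the lowest for the other 6. For the 12 transport kinesins it was the highest for 4 and the lowest for 4, and for the 4 others 2 and 2. This position was not counted over all rows. KIF2B, the remaining mitotic row, was listed at 0 in all 6 libraries.

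In the windows searched, CHR letters were found in 10 of the 12 tested mitotic kinesins, of which 1 was higher, 2 were lower and 7 did not pass. The 2 without CHR letters, KIF2C and KIF20A, were the 2 most abundant mitotic kinesins, and both were called higher on the unscaled values. This split was made after the values were seen and has no test.

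Among the transport kinesins the most abundant members did not pass, and the 4 that rose were of moderate or low level. KIF5B, the widely expressed heavy chain of conventional kinesin, stood at 26.58, 21.47 and 15.23 FPKM in overexpression libraries and at 19.42, 22.48 and 19.68 FPKM in vector libraries. The overexpression libraries lay on both sides of the vector libraries. The log2 change of KIF5B was 0.01 with an interval of -0.45 to 0.47 (limma adjusted p = 0.982). Its neuronal relatives KIF5A and KIF5C stood at 0.660 ± 0.108 and 0.140 ± 0.0755 FPKM in overexpression libraries and at 0.567 ± 0.0709 and 0.280 ± 0.0900 FPKM in vector libraries (SD, n = 3 each), below the filter. KIF5B held 27.2% ± 5.07 of the summed transport kinesin FPKM in overexpression libraries and 29.2% ± 1.17 in vector libraries.

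KIF3A and KIF3B form the heterodimeric motor that drives intraflagellar transport in cilia. KIF3C, which can pair with KIF3A in place of KIF3B, stood at 3.54, 5.30 and 5.37 FPKM in overexpression libraries and at 2.07, 3.06 and 2.01 FPKM in vector libraries. All overexpression libraries were above all vector libraries, and KIF3C had the largest rise among all tested motors, 0.86 ± 0.21 log2 (SE, limma adjusted p = 0.0134), or 0.60 above the median gene. It passed with median centring and quantile normalization but not with the length and GC correction (0.57, adjusted p = 0.0697). KIF3A and KIF3B did not pass. KIF3A stood at 5.08 ± 0.224 FPKM in overexpression libraries and 4.51 ± 0.537 FPKM in vector libraries, and KIF3B at 13.8 ± 1.63 FPKM in overexpression libraries and 14.6 ± 0.305 FPKM in vector libraries (SD, n = 3 each). KIFAP3, their cargo-binding partner, had 5.59, 3.98 and 4.87 FPKM in overexpression libraries and 2.83, 4.23 and 2.74 FPKM in vector libraries (limma adjusted p = 0.0632).

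In the KIF1 group, KIF1C rose while KIF1B did not pass. KIF1C, which carries dense-core vesicles and integrins, stood at 8.77, 10.23 and 9.83 FPKM in overexpression libraries and at 6.19, 6.59 and 5.73 FPKM in vector libraries. All overexpression libraries lay above all vector libraries. The KIF1C log2 change was 0.60 ± 0.10 (SE, limma adjusted p = 0.00358), or 0.33 above the median gene. It passed in each fit that left out a library (adjusted p between 0.00688 and 0.0185) and in all 3 rescalings (adjusted p between 0.0259 and 0.0474). KIF1B, a carrier of mitochondria and synaptic vesicle precursors, stood at 9.87 ± 1.30 FPKM in overexpression libraries and 11.1 ± 0.807 FPKM in vector libraries (-0.17 log2, limma adjusted p = 0.291). It passed as lower with median centring (adjusted p = 0.0393) and quantile normalization (adjusted p = 0.0153). KIF1A, mainly a neuronal motor, had 1.55, 1.80 and 1.82 FPKM in overexpression libraries and 0.91, 1.36 and 1.66 FPKM in vector libraries and did not pass (limma adjusted p = 0.195).

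Paralogues were also compared by their ratio within each library, after adding 0.5 to each FPKM. The log2 ratio of KIF1B to KIF1C was 0.30, 0.00 and -0.21 in overexpression libraries and 0.78, 0.61 and 1 in vector libraries. The groups did not overlap, and the difference was -0.76 (exact two-sided permutation p = 0.10, the smallest that 3 against 3 allows). The log2 ratio of KIF13A to KIF13B was 0.57 ± 0.07 in overexpression libraries and 0.89 ± 0.19 in vector libraries (SD, n = 3 each), also without overlap (exact permutation p = 0.10). This difference of -0.33 was -0.51 with no pseudocount, an alternative chosen after seeing the data, and -0.23 with a pseudocount of 1, where the groups overlapped (exact permutation p = 0.20). The ratios KIF3A to KIF3B, KIF18A to KIF18B and KIF20A to KIF20B differed by 0.25, -0.26 and 0.17 log2 (exact permutation p = 0.20, 0.50 and 0.20). The KIF18A to KIF18B difference was 0.01 without overexpression replicate 2 and -0.67 without overexpression replicate 1. After Benjamini-Hochberg adjustment over the 5 ratios the exact permutation p was 0.25 or more for each. The ratios with KIF5C and KIF21B were not tested, because those genes lay below the filter.

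KIF13B, which carries scaffold proteins and receptors to the membrane, stood at 1.79, 1.89 and 1.59 FPKM in overexpression libraries and at 0.83, 0.92 and 1.24 FPKM in vector libraries. The overexpression range lay wholly above the vector range, and the log2 change was 0.60 ± 0.16 (SE, limma adjusted p = 0.0176), or 0.33 above the median gene. With a vector mean of 0.997 FPKM, just under the filter, KIF13B passed that filter through its overexpression libraries. The KIF13B call was lost without overexpression replicate 1 (adjusted p = 0.0558) or 2 (0.0637), with median centring (0.0759) and with the length and GC correction (0.0633). KIFC3, a minus-end motor found at adherens junctions, stood at 1.5, 1.93 and 1.82 FPKM in overexpression libraries and at 1.35, 1.13 and 0.82 FPKM in vector libraries. Its log2 change was 0.50 ± 0.17 (SE, limma adjusted p = 0.0483). The KIFC3 call held without vector replicate 1 (adjusted p = 0.0332) and was lost without any other single library (0.0619 to 0.141), with no filter (0.0685) and in all 3 rescalings (0.126 to 0.941).

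The endosome carriers KIF13A and KIF16B and the minus-end motor KIFC2 did not pass. KIF13A stood at 3.09, 2.97 and 2.48 FPKM in overexpression libraries and at 2.20, 2.31 and 2.27 FPKM in vector libraries, without overlap (0.27 log2, limma adjusted p = 0.102). KIF16B differed by -0.05 log2 with an interval of -0.33 to 0.23. KIFC2 had 1.17, 1.37 and 1.16 FPKM in overexpression libraries and 1.09, 2.31 and 1.61 FPKM in vector libraries (-0.29 log2, limma adjusted p = 0.310), and passed as lower with the length and GC correction (-0.81, adjusted p = 0.0317).

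Outside the main classes, 2 kinesins with a role at the primary cilium were lower. The ciliary transport motors KIF3A (0.16 log2, limma adjusted p = 0.276) and KIF3B (-0.09 log2, limma adjusted p = 0.503) did not pass, and KIF3C was higher. Ciliary genes as a group were not tested. KIF7, which organizes the tip of the cilium in Hedgehog signalling, stood at 0.61, 0.62 and 0.70 FPKM in overexpression libraries and at 2.1, 1.99 and 1.32 FPKM in vector libraries. Each overexpression library was below each vector library, and the fall of KIF7 was the largest of all tested motors, -0.99 ± 0.18 log2 (SE, limma adjusted p = 0.00406), or -1.26 relative to the median gene. KIF24, a depolymerase that restrains the growth of cilia from centrioles, stood at 2.0, 1.66 and 1.5 FPKM in overexpression libraries and at 3.04, 3.07 and 2.70 FPKM in vector libraries. Again no overexpression library reached the vector range, and the log2 change of KIF24 was -0.63 ± 0.13 (SE, limma adjusted p = 0.00786), or -0.90 relative to the median gene. KIF7 and KIF24 passed as lower in each fit that left out a library, with adjusted p up to 0.0173 for KIF7 and 0.0342 for KIF24, and in all 3 rescalings.

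KIF21A, which restrains microtubule growth at the cell cortex, stood at 2.73 ± 0.223 FPKM in overexpression libraries and 3.14 ± 0.344 FPKM in vector libraries and did not pass (-0.17 log2, limma adjusted p = 0.290). It passed as lower with median centring (adjusted p = 0.0422). KIF26A, a signalling protein that does not act as a motor in the usual way, stood at 1.69 ± 0.261 FPKM in overexpression libraries and 1.34 ± 0.193 FPKM in vector libraries (0.25 log2, limma adjusted p = 0.218). KIF1BP, the binding protein that keeps several kinesins off microtubules, stood at 9.22, 9.11 and 9.32 FPKM in overexpression libraries and at 6.65, 6.43 and 6.53 FPKM in vector libraries. The groups did not overlap and varied little, with a log2 change of 0.47 ± 0.08 (SE, limma adjusted p = 0.00400), or 0.20 above the median gene. KIF1BP did not pass with quantile normalization (adjusted p = 0.120) or the length and GC correction (adjusted p = 0.499).

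The 10 rows below the filter reached at most 0.98 FPKM. KIF2B, KIF6, KIF12 and KIF19 were listed at 0 in all 6 libraries, and a value of 0 here may stand for an estimate that failed. KIF9 stood at 0.883 ± 0.1 FPKM in overexpression libraries and 0.520 ± 0.204 FPKM in vector libraries (SD, n = 3 each). KIF26B stood at 0.10, 0.04 and 0.05 FPKM in overexpression libraries and at 0.35, 0.28 and 0.36 FPKM in vector libraries. In a fit with no filter KIF26B was the only one of these rows past the threshold (limma adjusted p = 0.00312), where 35.3% of 14518 rows passed, 25.7% higher and 9.68% lower. KIF21B stayed at or below 0.20 FPKM and KIF25 at or below 0.02 FPKM in all libraries.

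**Figure D4:**
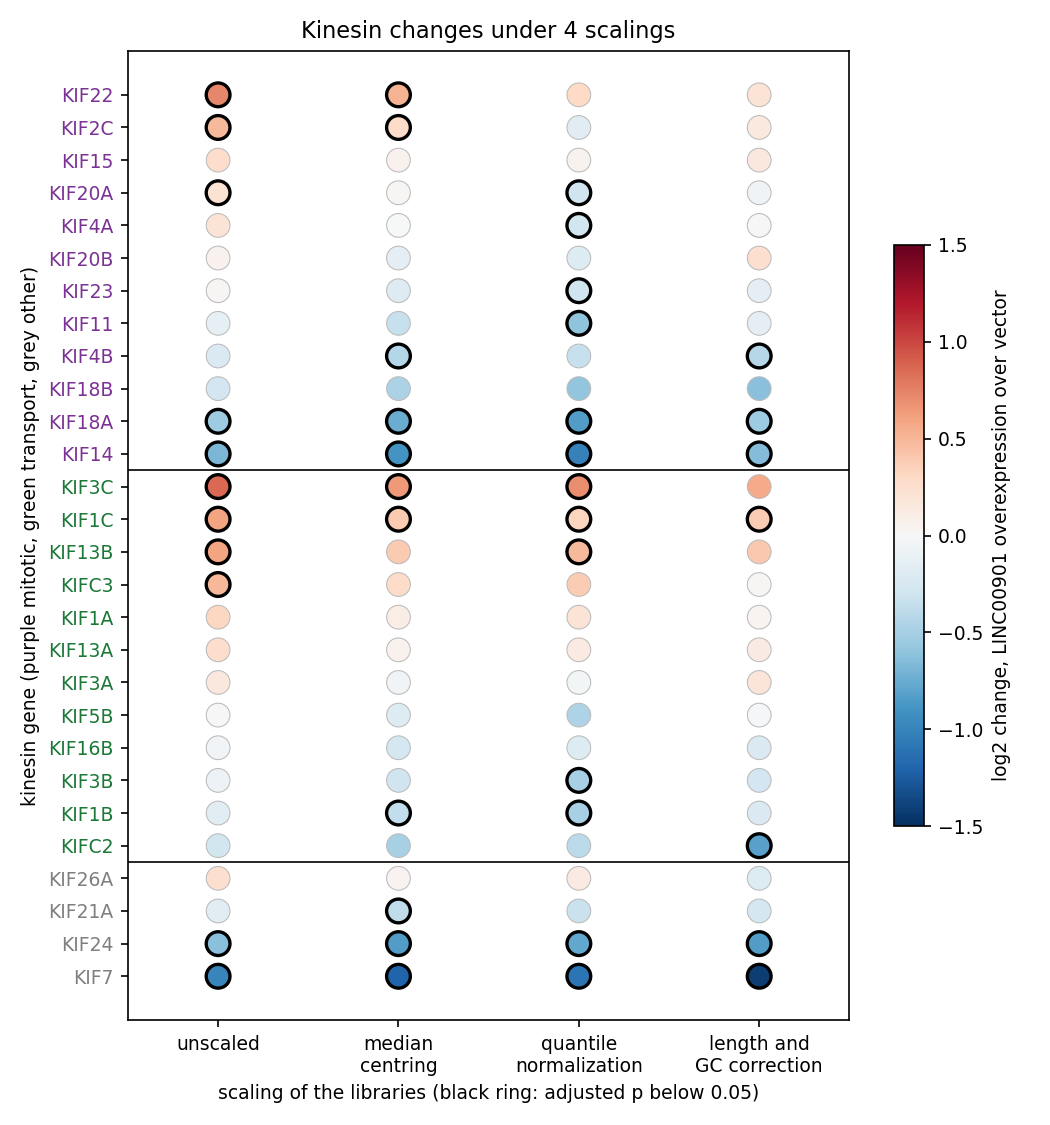
Log2 change, LINC00901 overexpression over vector, of each tested kinesin motor under 4 scalings of the libraries, from blue (lower) to red (higher), with a black ring where the adjusted p was below 0.05. KIF1C is ringed red, and KIF14, KIF18A, KIF24 and KIF7 are ringed blue, in all 4 columns.

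Transcript length and GC content moved with the changes of mitotic kinesins, but across all 28 tested motors length did not. The longest annotated transcripts of the 28 motors ran from 2505 to 10669 bases, with a median of 5361, against a median of 3722 bases for the 8830 tested rows with a length. Median lengths were 6214 bases for transport and 4282 bases for mitotic kinesins. Across the 12 mitotic kinesins the log2 change had a Pearson correlation of -0.62 with log length and 0.50 with GC content. Across the 12 transport kinesins these were 0.10 and 0.23. All 28 tested motors together gave -0.04 and 0.20, and all 8830 rows -0.29 and 0.27. These correlations are across genes of the same 6 libraries and describe them only. With the length and GC correction the median log2 change of mitotic kinesins was -0.11 and that of transport kinesins 0.03, against 0.00 for all rows. RNA integrity per library was not analysed here, and the part of length and GC content in single changes was not tested beyond this correction.

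**Figure D5:**
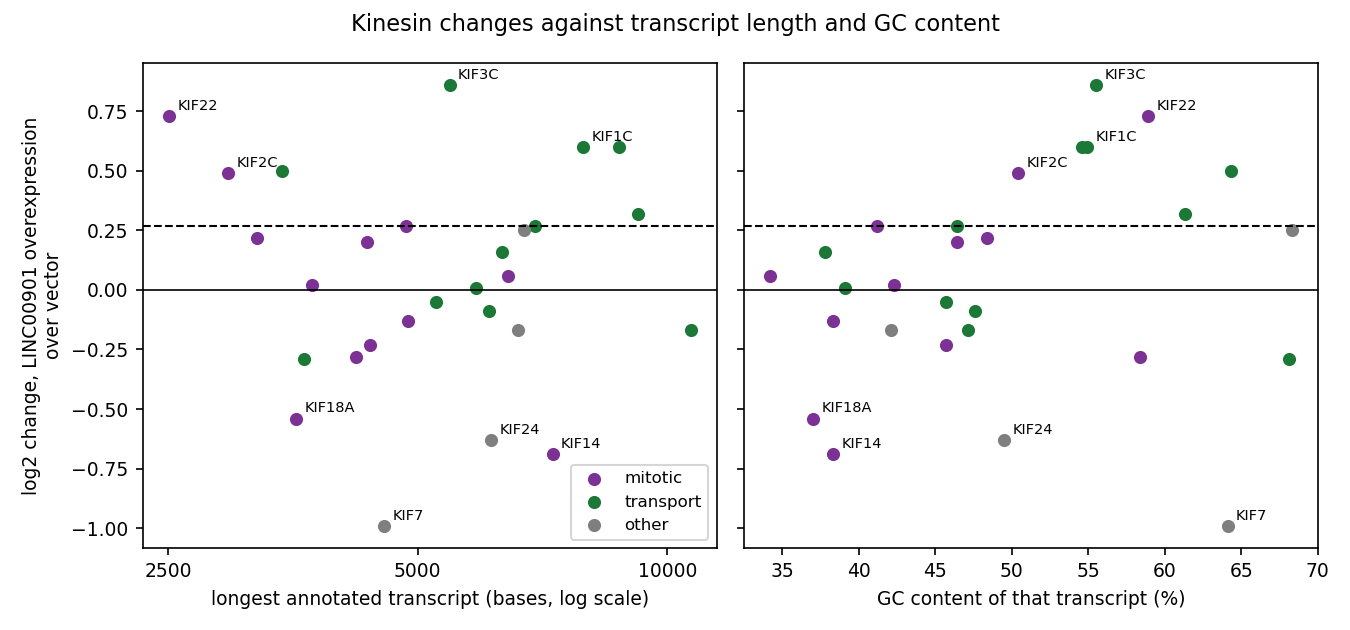
Unscaled log2 change, LINC00901 overexpression over vector, of the 28 tested kinesin motors against the length (left, log scale) and GC content (right) of the longest annotated transcript. Solid and dashed lines mark 0 and the median of all tested rows. Among mitotic kinesins (purple) the shortest transcripts, of KIF22 and KIF2C, lie highest and the long transcript of KIF14 lies lowest. Others depart from this order: KIF18A, with 3568 bases, lies at -0.54 and KIF20B, with 6419 bases, at 0.06.

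Exons of 11 tested motors overlap another annotated gene on the opposite strand, and whether the counting used strand is not given in the sources used here. For KIF18A, KIF20A, KIF24 and KIF7 the partner is a protein-coding gene of at least 1 FPKM (METTL15, CDC23, UBAP1 and TICRR). The shared exon lengths are 61, 68, 143 and 47 bases, and if strand was not used, reads from these stretches cannot be told apart from those of the partner.

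Among genes whose products work with kinesins, up to 3 of the largest changes past the threshold in each of 5 lists are named, and others are named after their values were seen. The share called higher ran from 28.6% to 47.4% over these lists and the share called lower from 0.0% to 9.52%, against 37.4% and 11.9% of all tested rows. Of 14 tested light chains and cargo adaptors, 4 were higher and 1 was lower (3 and 2 with median centring, 3 and 3 after correcting for length and GC). PLEKHM2, an adaptor of conventional kinesin, rose by 0.86 log2 (limma adjusted p = 0.00210) and passed in all 3 rescalings. It stood at 19.90, 21.34 and 16.70 FPKM in overexpression libraries and at 9.03, 10.73 and 11.45 FPKM in vector libraries, and the groups were well apart. MAPK8IP3, a scaffold that binds kinesin light chain, was lower (-0.52 log2, limma adjusted p = 0.0256). The MAPK8IP3 call was lost without overexpression replicate 1 or 3 or vector replicate 1 or 3 (adjusted p up to 0.0776). The light chain gene KLC2 did not pass (limma adjusted p = 0.0754).

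Dynein and dynactin, the motor that moves the opposite way, had 8 of 20 tested genes higher and 0 lower (4 and 0 with median centring, 4 and 1 after correcting for length and GC). The unscaled shares were 40.0% and 0.0%, against 37.4% and 11.9% of all tested rows, so the share higher was near the background. DYNLRB1, a dynein light chain, rose by 0.92 log2 (limma adjusted p = 0.000825), and BICD2, a cargo adaptor, by 0.59 log2 (limma adjusted p = 0.0329). The BICD2 call was lost without any 1 of the overexpression replicates (adjusted p up to 0.0853) and in all 3 rescalings. The dynein intermediate chain DYNC1I2 stood at 22.0 ± 2.18 FPKM in overexpression libraries and 10.5 ± 0.0529 FPKM in vector libraries (SD, n = 3 each). Of 23 spindle, midzone and passenger complex partners, 7 were higher and 2 lower (2 and 3 with median centring, 1 and 4 after correcting for length and GC). Unscaled, that is 30.4% and 8.7%, against the same background. CKAP5, a microtubule polymerase, stood at 72.8 ± 1.38 FPKM in overexpression libraries and 44.1 ± 4.10 FPKM in vector libraries, but its change was 0.04 log2 with quantile normalization. NUMA1, which anchors dynein at the poles, rose by 0.62 log2 (limma adjusted p = 0.0315), a call lost without any overexpression replicate or vector replicate 1 or 2 (adjusted p up to 0.0976) and in all 3 rescalings. KNSTRN, a kinetochore protein, rose by 0.53 log2 (limma adjusted p = 0.00913), a call lost in all 3 rescalings. The lower genes were ANLN, of the contractile ring (-0.29 log2), and CDCA8, of the passenger complex (-0.34 log2). ANLN lost its call without overexpression replicate 1 or 2 or vector replicate 1 or 2 (limma adjusted p up to 0.0708), and CDCA8 without overexpression replicate 3 (limma adjusted p = 0.0577). CENPE, a kinetochore kinesin whose name does not begin with KIF, did not pass (-0.35 log2, limma adjusted p = 0.105).

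Among 21 tested genes of mitotic expression control and cycle markers, 9 were higher and 2 lower (6 and 2 with median centring, 2 and 3 after correcting for length and GC). The unscaled shares were 42.9% and 9.52%, against 37.4% and 11.9% of all tested rows. RBL1, the pocket protein p107, stood at 5.38, 4.83 and 3.79 FPKM in overexpression libraries and at 8.98, 7.96 and 9.21 FPKM in vector libraries, and passed as lower in all 3 rescalings. RBL2, of the same list, went the other way (0.70 log2, limma adjusted p = 0.00215). Its level was 17.6 ± 0.818 FPKM in overexpression libraries and 10.7 ± 1.28 FPKM in vector libraries (SD, n = 3 each). MYBL2, which joins MuvB at CHR-bearing genes, stood at 44.52, 39.65 and 44.08 FPKM in overexpression libraries and at 26.68, 25.25 and 22.24 FPKM in vector libraries. The MYBL2 change of 0.78 log2 (limma adjusted p = 0.000899) did not pass with quantile normalization (0.21) or the length and GC correction (0.27). E2F1, the other lower gene, is a transcription factor of the start of S phase (-0.66 log2, limma adjusted p = 0.0108). FOXM1, a transcription factor of mitotic genes, rose by 0.77 log2 (limma adjusted p = 0.0149). It did not pass with quantile normalization (0.40, adjusted p = 0.149) or after correcting for length and GC (0.42, adjusted p = 0.102). Of 7 markers of cycling cells, CCNB1, CCNB2, CCNA2, CDC20 and TOP2A passed as higher, with log2 changes of 0.26 to 0.56 (limma adjusted p between 0.00279 and 0.0244). CDK1 and MKI67 did not pass, and MKI67 stood at 18.8 ± 2.26 FPKM in overexpression libraries and 18.8 ± 3.53 FPKM in vector libraries (SD, n = 3 each). The direction of some of these markers depends on the scaling. With median centring 2 passed as higher, with quantile normalization 4 passed as lower, and after correcting for length and GC 1 passed as higher. CCNB2 was positive in all 4 scalings (0.03 to 0.56 log2) and CDK1 negative in all 4 (-0.50 to -0.12 log2). The CCNB1 call was also lost without overexpression replicate 2 or vector replicate 1 (adjusted p up to 0.0677). In bulk RNA a change in the share of cells in mitosis and a change in RNA per cell cannot be told apart. Of 19 tested tubulin-modifying and plus-end genes, 9 were higher and 1 lower (6 and 3, and 3 and 1). Unscaled, that is 47.4% and 5.26%, against 37.4% and 11.9% of all tested rows. MAPRE2, a plus-end binding protein, had 2.95, 6.06 and 2.40 FPKM in overexpression libraries and 0.69, 0.93 and 0.84 FPKM in vector libraries. It passed in all 3 rescalings, with overexpression replicate 2 well above the other overexpression libraries. MAPRE2 reached the filter of 1 FPKM only through its overexpression libraries, since its vector mean was 0.82 FPKM. The microtubule-binding genes MAP4 and MAP7D1 rose by 0.91 and 0.76 log2 (limma adjusted p = 0.000545 and 0.00251), MAP7D1 not after correcting for length and GC (adjusted p = 0.232). TTL, a tubulin ligase, was lower (-0.39 log2, limma adjusted p = 0.0141), a call lost without overexpression replicate 3 (adjusted p = 0.0555) and after correcting for length and GC (adjusted p = 0.0656).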

How the data were processed

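The deposited table holds FPKM values, made by the authors, for 6 libraries and 18268 rows. HISAT2 with human build hg19, cutadapt and FastQC are named per the submitters' processing notes. Tool versions, the program behind the FPKM values and its strand setting were not stated in the labels read here. Depth is unknown, so no count model or counting interval was used. Values were transformed to log2(FPKM + 0.5), which understates changes of low genes, and rows with a mean of at least 1 FPKM (9694) were tested in R 4.3.3 by limma 3.58.1, its trend option on, with Benjamini-Hochberg adjustment at 0.05.

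Every kinesin row was accounted for. Those at or above the filter were described, and from each partner list up to 3 called genes, by absolute change, were named. Some genes of these lists are not reported here. The members, classes, partner lists and element letters were chosen with earlier results of these data known. Alternatives were pseudocounts of 1 and 0.1, omission of the filter, a filter at 5 FPKM, median centring, quantile normalization, a correction for length and GC content (splines with 4 degrees of freedom per library), a replicate block, omission of single libraries, limma with robust estimation or with no trend, a threshold of 0.01, and leaving out joined rows. Length and GC content are those of the longest GENCODE 29 transcript by symbol, known for 8830 rows (91.1%). Promoter windows are from RefSeq, build GRCh38.p14, which is another build than the authors', so they are used for sequence only. Tables were handled with pandas 2.3.3 (Python 3.11.15), and permutation tests went through every split of the libraries with numpy 2.4.6. The fit was tested on simulated data, in which far fewer rows changed than were called here. It called 13.4% of rows with a simulated log2 change of 0.5, 64.2% at 1.0 and 89.4% at 2.0. With fewer changed rows the adjustment is stricter, so these shares may be lower than those for the data here. They do not measure how often a true change would be missed here. A kinesin that did not pass may still differ.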

Additional observations from a re-analysis of the deposited data

How the results depend on the processing

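With a mean of at least 5 FPKM 2818 rows were called and with a threshold of 0.01 2881, against 4773. At a mean of at least 5 FPKM fewer genes were tested, 1 transport kinesin was higher and the transport median was -0.04 log2. At a threshold of 0.01, 1 transport kinesin was higher and 0 mitotic kinesins were lower. With median centring 2 transport kinesins were higher and 1 lower, and the median log2 changes were -0.17 (mitotic) and 0.01 (transport). With quantile normalization 0 mitotic kinesins were higher and 6 lower, 2 transport kinesins were lower, and the medians were -0.30 and 0.04. With the length and GC correction 0 mitotic kinesins were higher, 1 transport kinesin was higher and 1 lower, and the medians were -0.11 and 0.03. The cause of these moves was not tested. Leaving out single libraries gave 0 to 2 mitotic kinesins lower, 2 to 3 mitotic kinesins higher and 2 to 4 transport kinesins higher. In the same fits 3580 to 4358 of all 9694 rows were called, against 4773 with all libraries.

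Signs that turned with median centring were those of KIF4A (-0.01), KIF23 (-0.19), KIF20B (-0.15), KIF5B (-0.20) and KIF3A (-0.05). With quantile normalization they were KIF2C (-0.17), KIF20A (-0.30), KIF4A (-0.29), KIF23 (-0.30), KIF20B (-0.21), KIF5B (-0.46) and KIF3A (-0.04). With the length and GC correction they were KIF20A (-0.07), KIF4A (-0.00), KIF23 (-0.15), KIF26A (-0.20) and KIF5B (-0.02). Leaving out a library turned the signs of KIF23 (range -0.05 to 0.08), KIF20B (-0.06 to 0.15), KIF5B (-0.17 to 0.22), KIF3B (-0.16 to 0.00) and KIF16B (-0.10 to 0.01), none of which was called. Of the paralogue ratios, KIF18A to KIF18B turned with the length and GC correction (0.08) and over single libraries left out (-0.67 to 0.01), and KIF20A to KIF20B turned when length and GC were corrected for (-0.32) and with quantile normalization (-0.09).

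The labels do not say whether the replicate numbers pair the libraries. The correlations of deviations between same-numbered libraries were -0.037, -0.0057 and -0.0050. They show no strong shared pattern but cannot show whether a culture or batch was shared. With the replicate block 4227 rows were called, 2 mitotic and 3 transport kinesins were higher, and 2 mitotic kinesins were lower. KIF20A (limma adjusted p = 0.102) and KIFC3 (limma adjusted p = 0.0931) did not pass with the block. The depth behind the FPKM values is unknown, which limits what can be said of kinesins under 1 FPKM.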
